A study of Drosophila melanogaster with 24 samples.

Results

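The larval cuticle gene families of Drosophila melanogaster were followed in larvae whose histone H3 carries arginine in place of lysine 9 (K9R), the residue whose methylation marks heterochromatin. Genes were taken by name from 6 families: Cpr, Lcp, Ccp84, Twdl (Tweedle), obst (obstructor) and Cht (chitinase). Of 138 annotated genes, 106 matched 1 locus of the RNA tables over at least 50% of their joint span, out of 10253 loci in all. They comprised 57 Cpr, 11 Lcp, 7 Ccp84, 17 Twdl, 7 obst and 7 Cht genes. Another 28 genes lay in longer or split loci, and 4 had no locus; these are outside every count of members. Just inside the limit was Cht12, at 54.1% of joint span, and just outside it was Cht8, at 46.9%.

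RNA of whole first instar larvae was sequenced in 4 genotypes, each with 3 libraries. All 4 lack the endogenous canonical histone genes and live on a transgenic array of 12 copies. In canonical K9R larvae (H3.2-K9R) the array carries K9R. In H3.3 K9R larvae (H3.3-K9R_H3.2-HWT) the array is wild type, the replacement variant gene H3.3A is null and H3.3B carries K9R. Combined K9R larvae (H3.3-K9R_H3.2-K9R) carry the K9R array together with the H3.3A null and the H3.3B K9R alleles. The HWT larvae, against which each mutant was compared, carry the wild-type array and no labelled H3.3 mutation. Open chromatin was measured by FAIRE-seq, which recovers DNA that crosslinking leaves free of protein, in wing discs from wandering larvae in the third instar. Its 4 genotypes, also with 3 libraries each, were H3.3A null, H3.3B-K9R, the double mutant H3.3-K9R, and yw as wild type (WT). The labels give no age within an instar, and do not say whether the libraries of a genotype came from separate groups of animals, so a p-value covers the spread among these libraries and no more.

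The insect cuticle is a layered secretion of the epidermis and tracheae, built from chitin fibres in a protein matrix and replaced at every moult. Cpr, Lcp and Ccp84 proteins belong to the CPR family, which binds chitin through the Rebers and Riddiford domain, and Tweedle proteins are structural proteins that shape the larval body. Obstructors are secreted proteins with chitin-binding domains that organise the chitin matrix, and chitinases cut chitin, among other times when the old cuticle is shed.

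The files hold the authors' own comparisons and no value of a single library. Every log2 fold change below is given with 1 standard error (SE), a locus is called when its adjusted p is under 0.05, and a locus is tested when the authors' deposited table gives it an adjusted p. Counts for a genotype were derived from the deposited mean over all libraries and the 3 deposited folds; they are approximate, because the deposited folds look shrunken towards 0 (the largest SE in any RNA table was 0.306). The members' mean normalized count had a median of 26.8, against 108 over all loci in the authors' deposited table. It was under 10 in 46 members and under 1 in 14, and TwdlN was the highest at 11239 in the authors' deposited table. At the low counts, an uncalled member shows only that a change was not detectable at this depth. The locus that holds H3.3A and its neighbour Nepl3 had a log2 fold change of -0.82 ± 0.21 in combined K9R larvae (adjusted p = 8.36e-04) and of -0.55 ± 0.21 in H3.3 K9R larvae (adjusted p = 0.132), the genotypes with the H3.3A null allele, and of -0.34 ± 0.21 in canonical K9R larvae (adjusted p = 0.696), which lack it, according to the authors' deposited table. Counts per gene cannot show the K9R change itself.

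Few cuticle genes passed the test in either single mutant, and more did in the combined mutant, mostly as lower RNA. In canonical K9R larvae 1 of 74 tested members was higher and 1 was lower, where the authors' deposited table calls 3.04% of all tested loci higher and 0.505% lower. In H3.3 K9R larvae 0 of 59 tested members were higher and 3 were lower, beside 2.66% and 1.65% of all loci in the authors' deposited table. Without adjustment 10 of 105 members had a p under 0.05 in H3.3 K9R larvae, beside 9.12% of all loci in the authors' deposited table. In combined K9R larvae 4 of 59 were higher and 16 were lower (6.78% and 27.1%), beside 11.4% and 13.6% of all loci in the authors' deposited table. In either direction that is 33.9% of the tested members and 25.0% of all loci in the authors' deposited table. The median log2 fold change of the tested members was -0.01 in the canonical mutant, 0.10 in the H3.3 mutant and -0.22 in the combined mutant, and that of all tested loci lay between -0.01 and 0.00 in the authors' deposited tables. In the combined mutant 42 of the 59 tested members were below 0, as were 3790 of all 7634 tested loci in the authors' deposited table. Among larger changes, with an absolute log2 fold change of at least 1, 5 of the 59 tested members were lower in combined K9R larvae and 0 were higher, beside 2.32% and 3.65% of all loci in the authors' deposited table. By that limit 1 member was lower in H3.3 K9R larvae, beside 0.406%, and the 1 higher member of canonical K9R larvae dropped out, beside 1.88% of all loci in the authors' deposited tables. That member also dropped out at an adjusted p under 0.01, beside 2.35% of loci, and at an adjusted p under 0.01 the higher members of the combined mutant numbered 2, beside 7.53% of loci in the authors' deposited tables. Because whole larvae were used, fewer cells of a type and less RNA per cell cannot be told apart.

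**Figure D1:**
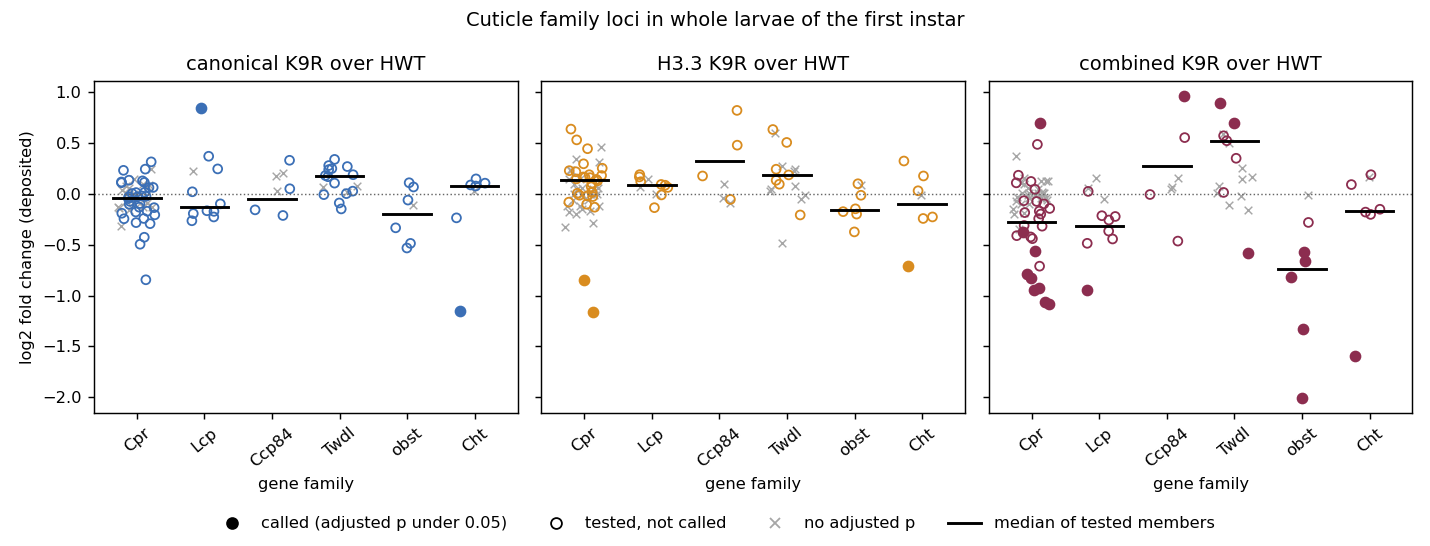
Log2 fold change over HWT (vertical axis) of every member in the canonical, H3.3 and combined K9R larvae (left to right), by family. Filled points are called, open points are tested and not called, crosses have no adjusted p, and bars are the median of tested members; in combined K9R larvae the obst median is -0.74 and the Twdl median is 0.52.

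By family, the share of tested members called in the combined mutant was 83.3% for obstructors, 42.9% for Tweedle and 32.1% for Cpr genes. It was 25.0% for Ccp84, 16.7% for Cht and 12.5% for Lcp genes. Of all loci 25.0% were called (11.4% higher and 13.6% lower) in the authors' deposited table. The Cpr family held the most calls, with 28 of the 59 tested members. All 6 tested obstructors were below 0 and 5 were called lower, with a median log2 fold change of -0.74 in the authors' deposited table. Of 28 tested Cpr genes 8 were lower and 1 was higher, with a median of -0.28, and of 8 tested Lcp genes 1 was lower, with -0.31 as the median in the authors' deposited table. The medians of the Ccp84 and Tweedle genes had the opposite sign, 0.27 over 4 tested Ccp84 genes and 0.52 over 7 tested Tweedle genes in the authors' deposited table. Among these, 1 Ccp84 gene and 2 Tweedle genes were higher, and 1 Tweedle gene was lower. Of the 6 tested chitinases 1 was lower, and their median was -0.17 in the authors' deposited table. In canonical K9R larvae the family medians lay between -0.20 (obst) and 0.17 (Twdl), and in H3.3 K9R larvae between -0.16 (obst) and 0.33 (Ccp84) in the authors' deposited tables.

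Among the obstructors, obst-A (X:20239855-20243209, dm6) had the lowest RNA relative to HWT. It is a scaffold protein needed for an ordered chitin matrix in the larval cuticle. The authors' deposited table implies 179 normalized counts in the canonical mutant, 199.6 in the H3.3 mutant and 64.4 in the combined mutant, against 259 in HWT larvae. The combined mutant thus stood at 0.249 of the HWT level and below both single mutants. The log2 fold changes in the authors' deposited table were -0.53 ± 0.26 in the canonical mutant (adjusted p = 0.452), -0.37 ± 0.26 in the H3.3 mutant (adjusted p = 0.668) and -2.01 ± 0.26 in the combined mutant (adjusted p = 1.07e-12).

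The next obstructor by size was obst-G (3L:11952301-11953317), with implied counts of 63.1 in the canonical mutant, 59.4 in the H3.3 mutant and 26.3 in the combined mutant, against 65.8 in HWT larvae in the authors' deposited table. Its log2 fold change was -1.33 ± 0.28 in the combined mutant (adjusted p = 2.74e-05), while the authors' deposited table gave -0.06 ± 0.27 in canonical and -0.15 ± 0.27 in H3.3 K9R larvae. Neither single mutant was called. The obst-F locus (3L:20200093-20201638), which also touches CG42833, was at -0.82 ± 0.21 in combined K9R larvae (adjusted p = 9.71e-04), -0.33 ± 0.21 in canonical K9R and -0.18 ± 0.20 in H3.3 K9R larvae in the authors' deposited table. For obst-E (2L:5762553-5766142), which encodes a chitin-binding protein of the larval cuticle, the authors' deposited table gave -0.66 ± 0.19 in combined K9R (adjusted p = 0.00267), -0.49 ± 0.18 in canonical K9R (adjusted p = 0.166) and 0.10 ± 0.18 in H3.3 K9R larvae. The implied counts put obst-E at 218 in the canonical mutant, 327 in the H3.3 mutant and 193 in the combined mutant, against 305 in HWT larvae in the authors' deposited table, so both genotypes with the K9R array were the low ones. The obst-H locus (3L:15527577-15529249), which touches CG42728, was at -0.57 ± 0.20 in combined K9R larvae (adjusted p = 0.0210) according to the authors' deposited table. The remaining tested obstructor, obst-B, was at -0.28 ± 0.26 there (adjusted p = 0.477) according to the authors' deposited table and was not called.

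**Figure D2:**
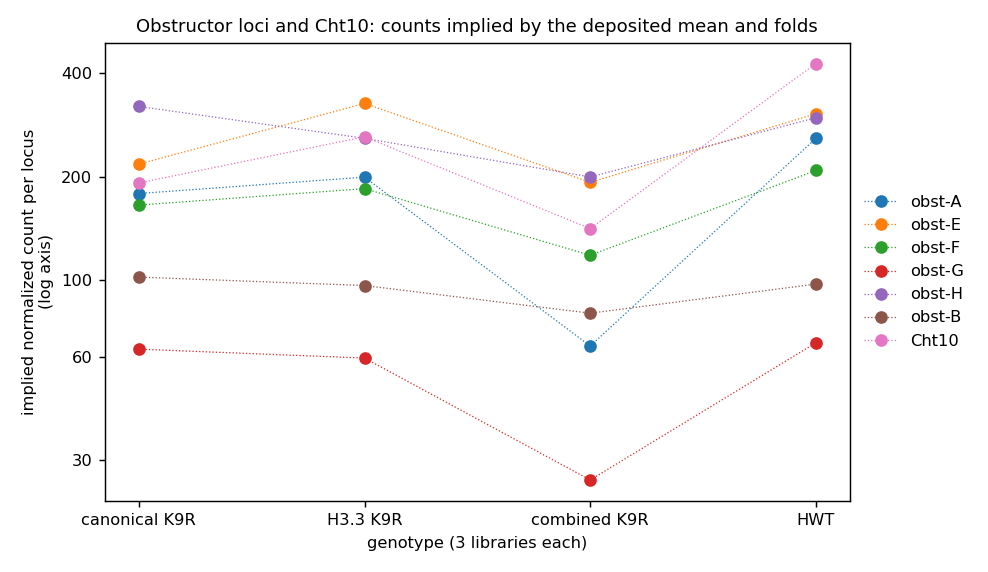
Normalized counts per locus implied by the deposited mean and folds (log axis) for 6 obstructors and Cht10 in canonical K9R, H3.3 K9R, combined K9R and HWT larvae; each point is derived for 1 genotype, and dotted lines only join the points of a locus. The lowest point of each obstructor is the combined mutant (64.4 for obst-A against 259 in HWT), and Cht10 is highest in HWT (427).

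Of the chitinases, Cht10 (2L:22999564-23025915) was the member called lower in all 3 mutants. It encodes a large chitinase with several catalytic domains and lies close to the centromere on 2L. The authors' deposited table implies 192 normalized counts in the canonical mutant, 261.5 in the H3.3 mutant and 141 in the combined mutant, against 427 in HWT larvae. Its log2 fold changes in the authors' deposited table were -1.15 ± 0.20 (adjusted p = 3.26e-07) in canonical K9R, -0.71 ± 0.19 (adjusted p = 0.00846) in H3.3 K9R and -1.59 ± 0.20 (adjusted p = 7.74e-14) in combined K9R larvae. No other tested chitinase was called. Cht6, the chitinase with the highest mean count, had 3712 implied counts in the canonical mutant, 2975 in the H3.3 mutant and 3059 in the combined mutant, against 3520 in HWT larvae in the authors' deposited table. Its log2 fold change in the combined mutant was -0.20 ± 0.17 (adjusted p = 0.421), and that of Cht4 was 0.19 ± 0.21 (adjusted p = 0.566) according to the authors' deposited table.

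**Figure D3:**
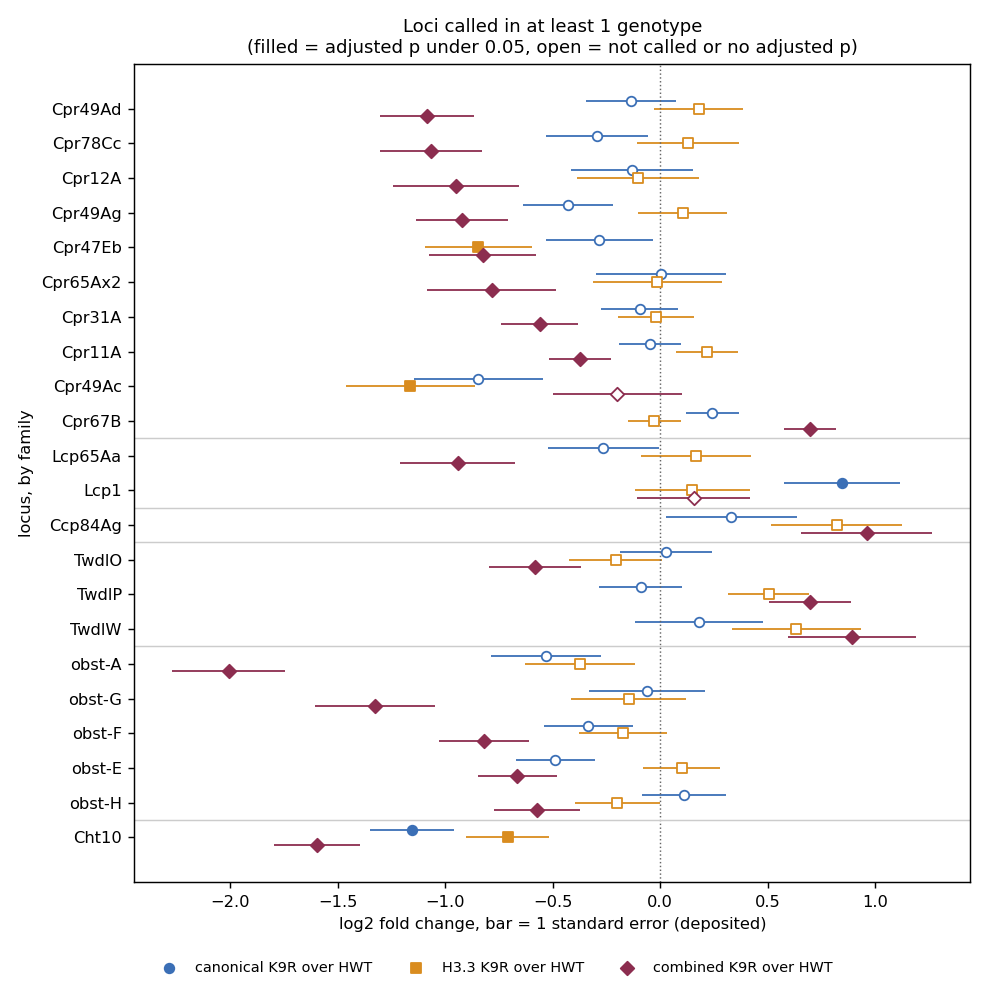
Log2 fold change over HWT with 1 SE (horizontal axis) of the 22 loci called in at least 1 genotype, grouped by family; circles are canonical K9R, squares H3.3 K9R and diamonds combined K9R larvae, filled where called. Cht10 is filled in all 3 genotypes and obst-A, at -2.01, is the lowest point.

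The Cpr genes called lower in the combined mutant were led by Cpr49Ad (2R:12390896-12391699) and Cpr78Cc (3L:21300580-21301171). Cpr49Ad had implied counts of 135 in the canonical mutant, 168 in the H3.3 mutant and 69.8 in the combined mutant, against 148 in HWT larvae, with a log2 fold change of -1.09 ± 0.22 in the combined mutant (adjusted p = 1.10e-05) according to the authors' deposited table. Cpr78Cc had implied counts of 595 in the canonical mutant, 796 in the H3.3 mutant and 348 in the combined mutant, against 729 in HWT larvae, with -1.07 ± 0.24 in the combined mutant (adjusted p = 1.01e-04) according to the authors' deposited table. Neither gene was called in a single mutant. In Cpr49Ag the combined mutant was at -0.92 ± 0.21 (adjusted p = 2.09e-04) and the canonical mutant at -0.43 ± 0.21 (adjusted p = 0.479) according to the authors' deposited table. Cpr12A (-0.95 ± 0.29, adjusted p = 0.00740) and Cpr31A (-0.56 ± 0.18, adjusted p = 0.0111) were also called lower in combined K9R larvae in the authors' deposited table. The smallest called decrease was that of the abundant Cpr11A, at -0.37 ± 0.14 (adjusted p = 0.0415) according to the authors' deposited table.

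A different order of genotypes was seen at Cpr47Eb and Cpr49Ac. Cpr47Eb (2R:11255167-11255990) had implied counts of 359 in the canonical mutant, 243 in the H3.3 mutant and 246 in the combined mutant, against 437 in HWT larvae in the authors' deposited table. It was called in both genotypes with mutant H3.3, at -0.85 ± 0.25 in the H3.3 mutant (adjusted p = 0.0208) and -0.83 ± 0.25 in the combined mutant (adjusted p = 0.00668), and stood at -0.28 ± 0.25 in canonical K9R larvae in the authors' deposited table. Cpr49Ac (2R:12386666-12390223) was low in both single mutants and nearer HWT in the combined mutant, with implied counts of 69.3 in the canonical mutant, 55.6 in the H3.3 mutant and 108 in the combined mutant, against 124 in HWT larvae in the authors' deposited table. Its log2 fold changes were -0.85 ± 0.30 in the canonical mutant (adjusted p = 0.116), -1.16 ± 0.30 in the H3.3 mutant (adjusted p = 0.00442) and -0.20 ± 0.30 in the combined mutant (adjusted p = 0.687) according to the authors' deposited table. Cpr49Ac and Cpr49Ad are neighbours in the Cpr49A cluster on 2R, where the gene lowest in H3.3 K9R larvae lies beside the gene lowest in combined K9R larvae.

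Cpr67B (3L:9404797-9406174) was the Cpr gene called higher. It had implied counts of 1267 in the canonical mutant, 1051 in the H3.3 mutant and 1734 in the combined mutant, against 1071 in HWT larvae in the authors' deposited table. The log2 fold change in the combined mutant was 0.70 ± 0.12 (adjusted p = 2.28e-07), while the canonical mutant was at 0.24 ± 0.12 (adjusted p = 0.502) and the H3.3 mutant at -0.03 ± 0.12 in the authors' deposited table.

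In the Lcp family the called gene of the combined mutant was Lcp65Aa, at -0.94 ± 0.27 (adjusted p = 0.00311) according to the authors' deposited table. Lcp1, known for a major cuticle protein of the third instar, was called higher in canonical K9R larvae, at 0.84 ± 0.27 (adjusted p = 0.0499) with a mean of only 5.25 normalized counts in the authors' deposited table. That call was lost when p-values were adjusted over every locus (adjusted p = 0.0619, Benjamini-Hochberg), and Lcp1 had no adjusted p in the other 2 authors' deposited tables. Lcp4, a neighbour of Lcp1 on 2R, was at -0.49 ± 0.27 in the combined mutant (adjusted p = 0.191), and Lcp65Ab1, the most abundant Lcp member, was at -0.44 ± 0.30 (adjusted p = 0.299) according to the authors' deposited table.

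The Cpr65A and Lcp65A cluster on 3L, a run of 18 Cpr and Lcp genes, held 13 members, of which 11 were tested. Their median log2 fold change was -0.17 in the canonical mutant, 0.01 in the H3.3 mutant and -0.32 in the combined mutant in the authors' deposited tables. Of the 11, 2 were called lower in the combined mutant, beside 13.6% of all loci. In the single mutants 0 were called, beside 3.55% of all loci (canonical) and 4.31% (H3.3). With 11 loci, these counts are near the shares of all loci. The near-identical copies Cpr65Ax1 and Cpr65Ax2 fell on either side of the threshold in the combined mutant, at -0.71 ± 0.30 (adjusted p = 0.0680) for Cpr65Ax1 and -0.78 ± 0.30 (adjusted p = 0.0389) for Cpr65Ax2 in the authors' deposited table. How the authors' counting divided reads between such copies is not given in the sources used here, so the 2 values are uncertain.

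Genes called higher were found among the Ccp84 and Tweedle families, at mostly low counts. Ccp84Ag, of the cuticle gene cluster inside the Antennapedia complex on 3R, had implied counts of 20.2 in the canonical mutant, 28.4 in the H3.3 mutant and 31.3 in the combined mutant, against 16.1 in HWT larvae in the authors' deposited table. Its log2 fold change was 0.96 ± 0.30 in combined K9R (adjusted p = 0.010) and 0.82 ± 0.30 in H3.3 K9R larvae (adjusted p = 0.125) according to the authors' deposited table. In the same cluster Ccp84Ad was at 0.55 ± 0.24 (adjusted p = 0.0772) and Ccp84Ab at -0.46 ± 0.22 (adjusted p = 0.102) in the combined mutant in the authors' deposited table, neither of them called. TwdlW, with a mean of 11.4 normalized counts, was at 0.89 ± 0.30 (adjusted p = 0.0157) in the combined mutant in the authors' deposited table.

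The Tweedle cluster on 3R held genes called in opposite directions within a few kilobases. TwdlP (3R:26620608-26621364) had implied counts of 113 in the canonical mutant, 171 in the H3.3 mutant and 195 in the combined mutant, against 120.2 in HWT larvae, and a log2 fold change of 0.70 ± 0.19 in the combined mutant (adjusted p = 0.00207) according to the authors' deposited table. TwdlO (3R:26625932-26626738) had implied counts of 1298 in the canonical mutant, 1103 in the H3.3 mutant and 851 in the combined mutant, against 1274 in HWT larvae, and a log2 fold change of -0.58 ± 0.21 in the combined mutant (adjusted p = 0.0310) according to the authors' deposited table. TwdlP thus stood above HWT in both genotypes with mutant H3.3 and was called in the combined mutant, while TwdlO was lowest in the combined mutant. TwdlN, the most abundant member, had implied counts of 10937 in the canonical mutant, 10967 in the H3.3 mutant and 13776 in the combined mutant, against 9274 in HWT larvae, and was not called in the combined mutant (0.57 ± 0.29, adjusted p = 0.131) according to the authors' deposited table.

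**Figure D4:**
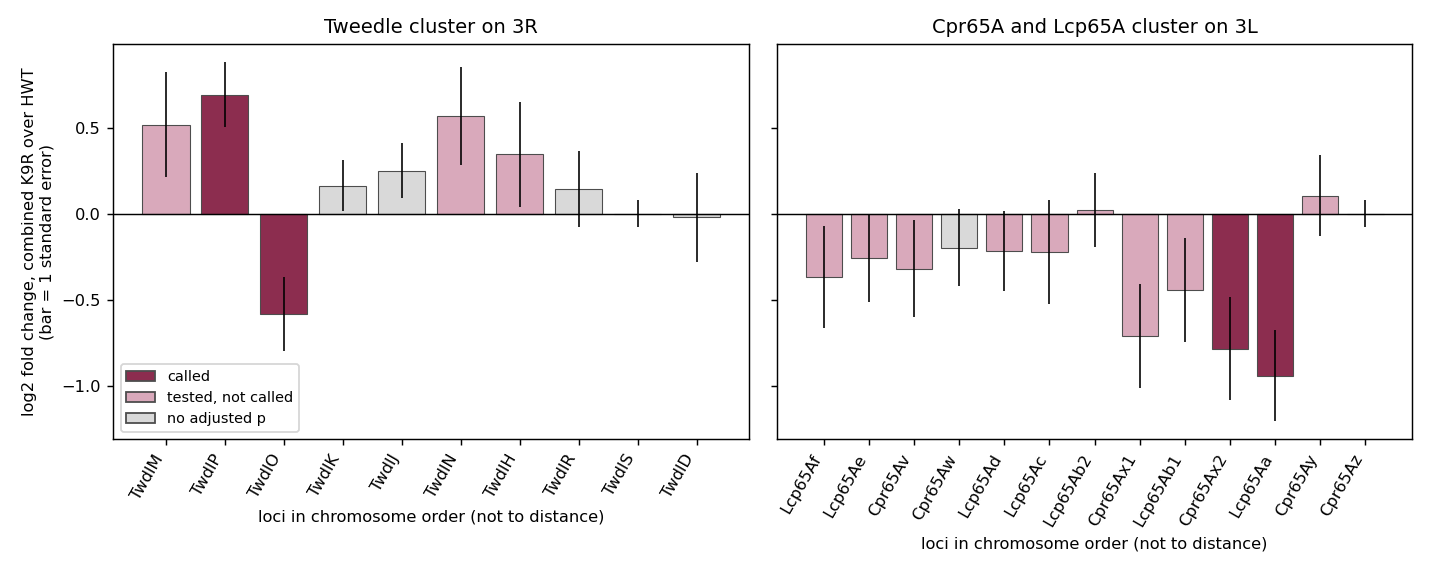
Log2 fold change of combined K9R over HWT larvae (vertical axis, bar = 1 SE) for members of the Tweedle cluster on 3R and the Cpr65A and Lcp65A cluster on 3L, in chromosome order and not to distance; dark bars are called, light bars tested and not called, grey bars without adjusted p. TwdlP (0.70) and TwdlO (-0.58) differ in sign, and the called members of the second cluster, Cpr65Ax2 (-0.78) and Lcp65Aa (-0.94), are both lower.

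To ask whether the mutants differed from each other, the deposited fold changes were subtracted and tested against their joined SE, with Benjamini-Hochberg adjustment over 10072 loci. The comparisons share the HWT libraries, so the joined SE overstates the error and real differences can be missed. Between combined and canonical K9R larvae 1 of 105 members passed as lower, beside 0.923% of all loci: obst-A, with a log2 difference of -1.47 ± 0.37 (adjusted p = 0.00620). Between combined and H3.3 K9R larvae 1 passed as higher and 5 as lower, beside 1.77% and 1.65% of all loci. Of these, obst-A (-1.63 ± 0.37, adjusted p = 9.65e-04), Cpr49Ad (-1.27 ± 0.30, adjusted p = 0.00239) and Cpr78Cc (-1.19 ± 0.34, adjusted p = 0.0165) had the largest decreases. Cpr49Ag (-1.03 ± 0.30, adjusted p = 0.0222) and Cht10 (-0.89 ± 0.28, adjusted p = 0.0433) were also lower in the combined mutant, and Cpr67B was higher (0.72 ± 0.17, adjusted p = 0.00231). Between canonical and H3.3 K9R larvae 0 members passed this z test, beside 1.19% of all loci. At an unadjusted p under 0.05 there were 3 of 105 members, beside 458 of 10072 loci. These counts depended on the error used. The variance due to the shared control was next taken out, assumed and not estimated to be 50% of the smallest squared SE. With it taken out, 7 of 105 members differed between combined and canonical K9R larvae (beside 6.56% of all loci). There were 15 between combined and H3.3 K9R larvae (beside 12.3%) and 2 between canonical and H3.3 K9R larvae (beside 3.49%). Of the 20 members called in the combined mutant, which that mutant's fold change selected, 7 then differed from the canonical mutant and 13 from the H3.3 mutant. Set against the sum of the single mutants' log2 fold changes, 0 members of the combined mutant passed the z test, beside 0.149% of all loci. At an unadjusted p under 0.05 there were 7 of 105 members, beside 404 of 10072 loci. By this z test Cpr49Ac stood 1.81 ± 0.52 above the sum (adjusted p = 0.194) and obst-A -1.10 ± 0.45 from it (adjusted p = 0.826). With the shared control taken out of the error, Cpr49Ac and Cpr49Ad passed that test (adjusted p = 0.00839 and 0.0332), beside 0.725% of all loci.

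Lists of other chitin and cuticle genes, not limited to genes of the epidermis, were read against the same shares of all tested loci in combined K9R larvae, 11.4% higher and 13.6% lower. Of 18 tested genes of chitin synthesis and assembly, 3 were higher and 2 lower in combined K9R larvae, a share near the 25.0% of all loci called either way, and their median log2 fold change was -0.02 in the authors' deposited table. In the single mutants 0 of the 18 were called by the authors' DESeq2 test, beside 3.55% of all loci in canonical K9R and 4.31% in H3.3 K9R larvae. At an unadjusted p under 0.05 there was 1 in canonical K9R larvae, beside 798 of 10072 loci. In H3.3 K9R larvae there were 6 of the 18, beside 919 of 10072 loci. The higher ones were Gfat1 (0.50 ± 0.15, adjusted p = 0.00439) and Gnpnat (0.49 ± 0.12, adjusted p = 7.66e-04), enzymes on the way to the chitin precursor, and the hexosaminidase gene fdl (0.44 ± 0.12, adjusted p = 0.00251), by the authors' deposited table. The Gnpnat locus also touches Wdr24, and the fdl locus also touches CG34234, Dh44-R2 and s-cup. The increases at these loci therefore cannot be assigned to Gnpnat or fdl alone. The lower ones were the chitin deacetylase genes Cda9 (-2.21 ± 0.25, adjusted p = 8.99e-17) and serp (-0.54 ± 0.18, adjusted p = 0.0135), by the authors' deposited table. Among 8 tested genes of other cuticle and chitin-binding proteins, 0 were called higher and 2 lower in the combined mutant, by the authors' deposited table. The lower ones were Peritrophin-15b (-1.25 ± 0.22, adjusted p = 2.05e-07) and Mur29B (-0.40 ± 0.15, adjusted p = 0.0325). The median of the 8 was 0.23, so these 2 went against their list. In whole larvae the RNA of Cda9, Peritrophin-15b and Mur29B cannot be assigned to epidermis or gut, so these decreases are not results about the cuticle alone.

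Zona pellucida proteins tie the epidermis to its apical matrix. The apical matrix list held genes of such proteins together with nw, which is not counted as one of them here. Of 10 tested genes of this list 1 (tyn, in a locus that also touches CG17707) was higher and 3 (nw, neo and mey) were lower in the combined mutant. Beside these stood 11.4% and 13.6% of all loci. There nw was at -2.10 ± 0.30 (adjusted p = 1.20e-10) and neo at -1.19 ± 0.29 (adjusted p = 5.20e-04), by the authors' deposited table. The canonical mutant, too, had lower nw (-1.15 ± 0.30, adjusted p = 0.00494) and neo (-1.06 ± 0.29, adjusted p = 0.0115), by the authors' deposited table. Of 8 tested epidermal transcription factor genes, rib was higher (0.53 ± 0.13, adjusted p = 5.34e-04) in the combined mutant, by the authors' deposited table. Of 13 tested tanning and pigment genes 0 were called in any mutant by the authors' DESeq2 test. Of all loci 25.0% were called in combined K9R, 3.55% in canonical K9R and 4.31% in H3.3 K9R larvae. At an unadjusted p under 0.05 there were 2 of the 13 in combined K9R, 1 in canonical K9R and 0 in H3.3 K9R larvae. Beside these stood 2786, 798 and 919 of 10072 loci. Of 3 chitinase-like growth factor genes 0 were called in any mutant by the same test, with 1 at an unadjusted p under 0.05 in combined K9R larvae and 0 in each single mutant. With 3 genes and the same shares of all loci, these counts show little.

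Ecdysone is the hormone that times the moults. A list of ecdysone and moult regulators, not limited to genes of the ecdysone pathway, held 16 tested genes in combined K9R larvae. Of these 4 (Hr4, Eip74EF, ftz-f1 and EcR) were higher and 2 (ImpE2 and ImpE1) lower, beside 11.4% and 13.6% of all loci, and the other 10 were not called. The receptor gene Hr4 was at 0.73 ± 0.09 (adjusted p = 1.80e-13) and Eip74EF at 0.83 ± 0.20 (adjusted p = 2.85e-04) in the combined mutant, by the authors' deposited table. The imaginal disc gene ImpE2, which ecdysone induces, was lower in all 3 mutants, at -1.85 ± 0.31 in the canonical mutant, -2.20 ± 0.31 in the H3.3 mutant and -2.22 ± 0.30 in the combined mutant in the authors' deposited tables. Hr4 was also higher in H3.3 K9R larvae, at 0.37 ± 0.09 (adjusted p = 0.00217), by the authors' deposited table.

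Among lists of tissue markers, 5 of 8 tested midgut digestive enzyme genes were lower in combined K9R larvae, beside 13.6% of all loci. Their summed implied count was 53547 in the canonical mutant, 43889 in the H3.3 mutant and 30507 in the combined mutant, against 59621 in HWT larvae in the authors' deposited table. The most abundant of them, the locus of Jon99Ciii with Jon99Cii, was at -1.19 ± 0.14 (adjusted p = 6.22e-15) in the combined mutant, by the authors' deposited table. Of 5 tested tracheal genes, which share the cuticle programme, serp was lower, with summed implied counts of 5222 in combined K9R and 5574 in HWT larvae in the authors' deposited table. In the combined mutant 2 of 8 tested muscle genes (up and sls) and 2 of 7 tested neuronal genes (para and Syt1) were higher, beside 11.4% of all loci. Of 4 fat body and 3 blood cell genes 0 were called there by the authors' DESeq2 test, beside 25.0% of all loci. At an unadjusted p under 0.05 there was 1 of each list, beside 2786 of 10072 loci. In H3.3 K9R larvae, however, 1 of 4 tested fat body genes was higher, apolpp (0.62 ± 0.17, adjusted p = 0.00890), by the authors' deposited table. So was 1 of 3 tested blood cell genes, Hml (0.52 ± 0.15, adjusted p = 0.0201), by the authors' deposited table, beside 2.66% of all loci. The median log2 fold change was 0.23 over the fat body list and -0.22 over the blood cell list, so Hml went against its list. Of 8 tested midgut genes 1 was lower there, the Jon99Ciii locus (-0.56 ± 0.14, adjusted p = 0.00404), by the authors' deposited table, beside 1.65% of all loci. The part of moult timing and tissue makeup in the cuticle results was not tested.

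In wing discs 58 FAIRE regions lay within 1 kb of 31 of the 106 members. Against WT 5.17% of them were called in H3.3A null, 6.9% in H3.3B-K9R and 3.45% in H3.3-K9R discs in the authors' deposited tables. In H3.3A null discs 2 regions were higher and 1 lower than in WT, beside 4.79% and 4.00% of all regions in the authors' deposited table. In H3.3B-K9R discs 4 were higher and 0 lower, beside 3.95% and 2.58% of all regions, and in H3.3-K9R discs 2 were higher and 0 lower, beside 4.71% and 3.21% in the authors' deposited tables. Between H3.3-K9R and H3.3A null discs 0 of the 58 regions were called by the authors' DESeq2 test (0 at an unadjusted p under 0.05), beside 6.50% of all regions. A region inside Cht6 (X:10046643-10047191, coordinates as the file gives them) was more open in each mutant, at 0.70 ± 0.14 in H3.3A null (adjusted p = 1.33e-05), 0.71 ± 0.14 in H3.3B-K9R (adjusted p = 1.05e-05) and 0.81 ± 0.14 in H3.3-K9R discs (adjusted p = 1.15e-07) according to the authors' deposited tables. So was a region inside Cht7 (3L:3098953-3099334), at 0.54 ± 0.16 in H3.3A null (adjusted p = 0.0111), 0.70 ± 0.16 in H3.3B-K9R (adjusted p = 3.49e-04) and 0.80 ± 0.16 in H3.3-K9R discs (adjusted p = 1.44e-05) according to the authors' deposited tables. Against H3.3A null discs, the H3.3-K9R discs were at 0.12 ± 0.13 for the Cht6 region and 0.26 ± 0.15 for the Cht7 region in the authors' deposited table, neither of them called. The other called regions lay at Cpr76Ba (-0.47 ± 0.15 in H3.3A null discs, adjusted p = 0.0281), Cpr49Ah (0.44 ± 0.11 in H3.3B-K9R discs, adjusted p = 0.0010) and Cpr62Ba (0.37 ± 0.12 in H3.3B-K9R discs, adjusted p = 0.0277) according to the authors' deposited tables. Tissue, stage and array background differ between the 2 assays, so RNA and FAIRE values stand side by side without a test.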

How the data were processed

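RNA-seq and FAIRE-seq reads were processed by the authors with TopHat2 2.1.1, Bowtie2 2.3.2, Cufflinks 2.1.1, SAMtools 1.5, MACS2 and DESeq2 on the dm6 genome, per the submitters' processing notes. What was deposited are the authors' DESeq2 comparisons: the mean normalized count over all libraries (a signal), the log2 fold change with its SE, the Wald statistic (a score), and the p-value and adjusted p-value, per the file headers. RNA tables have 10253 loci; starts were moved by 1 base to count from 1. No library totals are given, so depth per sample is unknown.

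Genes were matched by position to the RefSeq Release 6 annotation (joint span of at least 50%). The members and all gene lists were chosen with earlier results of these data known. Named members were the 10 called with the smallest adjusted p per comparison, the most abundant and the 2 with the largest change in combined K9R per family, up to 5 per test of a difference, and all of any count of 5 or fewer; in each pathway list up to 3 called genes, and up to 5 called FAIRE regions per table. obst-B, Cht4, Cpr12A, Cpr31A, Cpr11A, Cpr65Ax2, TwdlO, Gfat1, serp, mey, ftz-f1, EcR, ImpE1 and the tissue list genes fall in part outside that rule and were named after their values were seen. A missing adjusted p stayed missing. Counts per genotype were solved from the deposited mean and the 3 folds. Differences between mutants used a two-sided z test with Benjamini-Hochberg adjustment. It was tried on simulated fold changes that were not shrunken and had the same assumed control share of 50%. The simulation therefore cannot check that share or the effect of shrinkage. FAIRE regions within 1000 bases on either side of a member were used, since strand was not used here. The FAIRE and RNA tables were normalized separately. Alternatives were other thresholds, a mean count of at least 10, adjustment over every locus, and centring on the median of all tested loci. Others were a joint span of at least 80%, loci touching no other gene, and any locus touching a listed gene. FAIRE regions overlapping the gene itself and a smaller error for shared controls were also tried. Python 3.11.15, pandas 2.3.3, numpy 2.4.6 and scipy 1.17.1 were used.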

Additional observations from a re-analysis of the deposited data

How the results depend on the processing

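Of the counts of called members and regions, 53 values under the alternatives stayed within 1.5 times the main count and 15 moved. The values of named members were rerun only with centring on the median of all tested loci and with adjustment over every locus. Centring moved the fold changes only slightly and the adjustment left them unchanged, so a kept direction is no support. Of these values, 141 kept their direction and side of the threshold. The 1 that did not was Lcp1 in canonical K9R (adjusted p = 0.0619 over every locus, Benjamini-Hochberg). The 1 member higher in canonical K9R became 0 with a mean count of at least 10, with adjustment over every locus, at an adjusted p under 0.01 and with an absolute log2 fold change of at least 1. With that fold limit the 3 lower members in H3.3 K9R became 1, and in combined K9R the 4 higher became 0 and the 16 lower became 5; at an adjusted p under 0.01 the 4 higher became 2. With the shared control taken out of the error, members that differed numbered 7 (combined against canonical, main 1), 15 (combined against H3.3, main 6), 2 (canonical against H3.3, main 0) and 2 (combined against the sum, main 0). With a mean count of at least 10 the first became 2, and at an adjusted p under 0.01 the second became 3. FAIRE regions called in H3.3A null discs went to 1 at an adjusted p under 0.01, against 3 in the main setting. Counting any locus that touches a listed gene, chosen after seeing the data, gave 5 higher and 18 lower in combined K9R.

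No paired analysis was possible because the tables hold no column of a single library, and for the same reason leaving out each replicate could not be done. The FAIRE alternative limited to a window around each gene start was not run, because strand was not used here. Low counts limit the Cpr, Lcp, Ccp84 and Tweedle families most: 46 members had a mean under 10.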

Other observations

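Some cuticle genes lay in loci that join several genes and are therefore outside the counts of members. The locus of Cpr67Fa1 and Cpr67Fa2 (3L:10889990-10892522, dm6) was at -1.62 ± 0.24 in combined K9R (adjusted p = 4.34e-10), -0.39 ± 0.23 in canonical K9R and -0.12 ± 0.23 in H3.3 K9R larvae in the authors' deposited table. The locus on X that holds TwdlX with further Tweedle genes, goe and CG32568 was at -0.65 ± 0.15 in combined K9R larvae (adjusted p = 3.36e-04) according to the authors' deposited table. The locus of Lcp65Ag1 and its neighbours, with a mean of 26830 normalized counts, was at -0.53 ± 0.22 (adjusted p = 0.060) in combined K9R and at 0.51 ± 0.22 (adjusted p = 0.240) in H3.3 K9R larvae in the authors' deposited table. The locus that holds Cpr11B with Pits, hwt and mdu was higher in combined K9R larvae, at 0.37 ± 0.11 (adjusted p = 0.00567) according to the authors' deposited table. Cpr11B makes up 1.29% of that joint span, so the value cannot be assigned to it. The locus of TwdlB and TwdlL, between TwdlP and TwdlO, was at 0.51 ± 0.26 (adjusted p = 0.135) in combined K9R larvae in the authors' deposited table.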
